A study of Mus musculus with 9 samples.

Results

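The astrocyte genes described here are 33 genes commonly used as markers of astrocytes or of the radial glia they descend from, a list drawn up with earlier results of these data known. A gene was represented by the probe set with the highest mean over the 9 arrays among those annotated to its symbol alone, and all 33 genes had one, out of 18193 genes named in this way on the array. The tissue was spinal cord of mice at postnatal day 6 with the GAD65-GFP genotype, a transgene by which the GAD65 promoter drives a green fluorescent protein, and every group carried it. Dorsal, intermediate and ventral pieces of the cord were taken from 3 animals, so that each region had 3 arrays (n = 3) and an animal contributed to all regions. The labels mention no sorting of cells, and the values are those of whole pieces that hold neurons and all glia. In such pieces fewer astrocytes and less RNA per astrocyte cannot be told apart.

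Astrocytes take up glutamate and potassium released by neurons, couple to each other through gap junctions and cover synapses and vessels with fine processes. Fibrous astrocytes of white matter are classically rich in the filament proteins GFAP and vimentin, whereas protoplasmic astrocytes of grey matter carry high amounts of glutamate transporters and glutamine synthetase. In the first postnatal week spinal astrocytes are still dividing and maturing, and some progenitor genes of the Notch pathway remain active.

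The deposited values were read as log2 expression from their range, because no label states the scale, and they ran from a floor of 2.15 to 16.3 with array medians of 3.66 to 3.75. Differences are on that log2 scale with the standard error of the model after ±, folds are their antilogs, and adjusted p-values are two-sided values of limma over 13959 genes, called at 0.05. Of the genes tested, 52.8% were called between dorsal and ventral pieces, 30.1% between intermediate and dorsal, and 48.2% between intermediate and ventral. Among the 9743 genes with a mean of at least 6, which is the range in which all the astrocyte genes lay, the shares were 67.1%, 39.3% and 62.1%. The 3 comparisons share arrays and are not independent of each other. The defining markers Aldh1l1, Gfap, Slc1a3, Slc1a2, Aqp4, Sox9 and Gja1 were well above the floor on every array, and the lowest astrocyte value on any array was 6.26 for Nes in the dorsal piece of animal 2.

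Most astrocyte genes were highest in the ventral cord. Ventral pieces had more RNA than dorsal pieces for 30 of the 33 genes and less for 1, Hes5, while Vim and Fabp7 did not pass the test. For the same comparison, 28.2% of all genes tested were called higher in ventral pieces and 24.5% lower, or 35.3% and 31.8% of those with a mean of at least 6. The median difference over the 33 genes was 0.74, against 0.00 over all genes. In the 30 genes every ventral array lay above every dorsal array, which was so for 32.5% of all genes, and for Hes5 the reverse held, as for 27.5% of all genes. Intermediate pieces were called higher than dorsal ones for 22 genes and lower for 3 (Gfap, Id3 and Hes5), beside 15.9% and 14.2% of all genes in those directions (21.1% and 18.2% of those with a mean of at least 6). Against ventral pieces they were called lower for 26 genes and higher for 1, Hes5, beside 24.9% and 23.4% of all genes (31.2% and 30.9% of those with a mean of at least 6). The medians of the 33 genes were 0.30 for intermediate minus dorsal and -0.46 for intermediate minus ventral, against 0.00 over all genes in both.

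**Figure D1:**
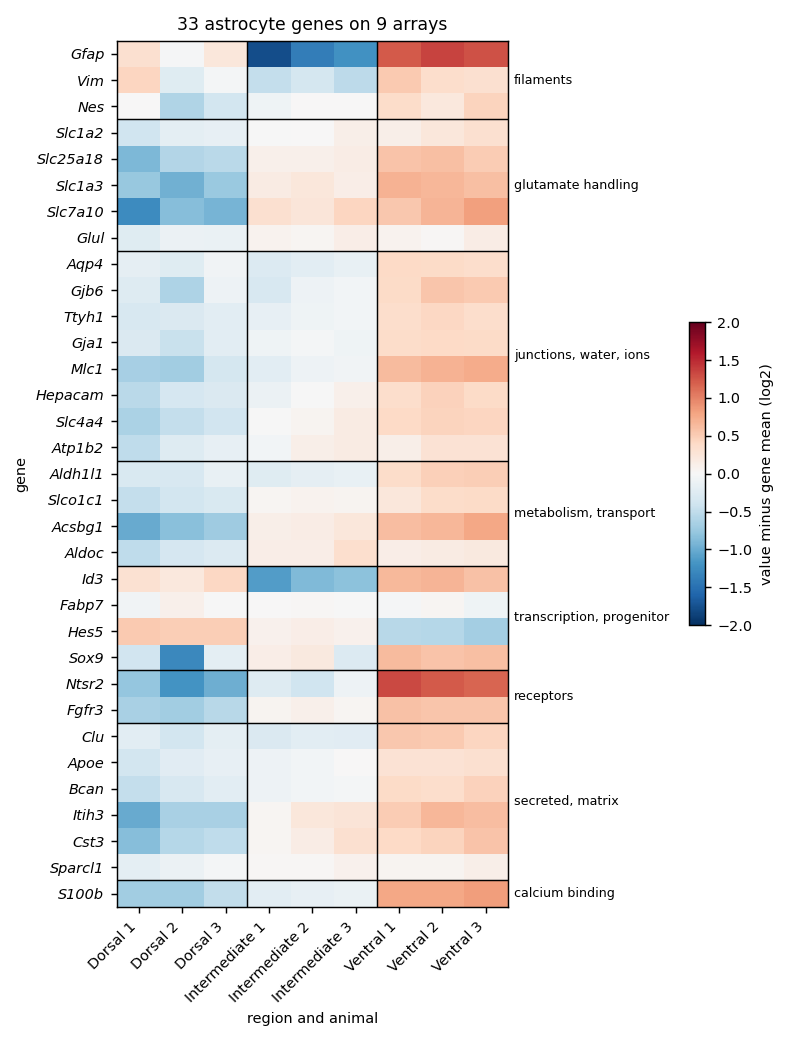
Heat map of the 33 astrocyte genes (rows, grouped by role) on the 9 arrays (columns, by region and animal); colour gives the log2 value minus the gene's mean over the arrays. Ventral columns are red in most rows, dorsal columns blue in most, and Gfap, Id3 and Hes5 break the pattern.

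Gfap, the intermediate filament protein by which astrocytes are commonly recognised, was lowest in the intermediate cord and highest in the ventral cord. It stood at 11.12, 10.78 and 11.02 in the dorsal pieces of animals 1 to 3, at 9.02, 9.42 and 9.59 in the intermediate pieces and at 12.03, 12.15 and 12.08 in the ventral pieces. No regions overlapped. Intermediate pieces were lower than dorsal ones by -1.63 ± 0.16 (adjusted p = 0.00294), a 3.10-fold change, and ventral pieces exceeded intermediate ones by 2.74 ± 0.16 (adjusted p = 0.000374), or 6.68-fold. Ventral pieces also exceeded dorsal ones, by 1.11 ± 0.16 (adjusted p = 0.004). Both other Gfap probe sets ran the same way, at -1.16 and -1.68 for intermediate minus dorsal. With 1 animal left out, the call against dorsal was lost without animal 3 (adjusted p = 0.0582), and that between dorsal and ventral without animal 2 (0.0594) or animal 3 (0.0536).

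Vim encodes vimentin, the filament partner of GFAP in immature and fibrous astrocytes, which is also made by vessel, meningeal and other mesenchymal cells. Its dorsal values were 14.72, 14.03 and 14.25, its intermediate values 13.80, 13.94 and 13.76, and its ventral values 14.81, 14.63 and 14.61. The intermediate arrays lay below all the others, with a difference of -0.50 ± 0.16 from dorsal (adjusted p = 0.0748) and a ventral excess of 0.85 ± 0.16 (adjusted p = 0.00954), and the latter call was lost without animal 3 (0.118). The dorsal array of animal 1 stood apart from the other dorsal arrays, and without that array ventral pieces exceeded dorsal ones (dorsal minus ventral -0.52, adjusted p = 0.0325, against 0.126 with all arrays). Against dorsal pieces the fall passed without the dorsal array of animal 2 (-0.66, adjusted p = 0.0359) and when only genes with a mean of at least 6 were tested (adjusted p = 0.0218). It also passed with a filter at the 50th percentile (0.0351) and with only genes whose 9 values were distinct and above the floor (0.0187). In the latter setting the Vim difference between dorsal and ventral pieces passed as well (0.0451). Nes, the nestin of neural progenitors and of endothelium, followed another course: 6.86, 6.26 and 6.48 in dorsal, 6.77, 6.86 and 6.86 in intermediate, and 7.22, 7.06 and 7.30 in ventral pieces. Its excess in ventral over dorsal pieces passed, at 0.66 ± 0.14 (adjusted p = 0.0138), and that was lost without animal 2 (0.0890) or animal 3 (0.152). Its other differences missed the threshold (adjusted p = 0.194 for intermediate minus dorsal and 0.0917 for intermediate minus ventral), and both passed without the dorsal array of animal 1 (0.0268 and 0.0168). The latter also passed with only genes of a mean of at least 6 (0.0326), with a filter at the 50th percentile (0.0474) and with the 6 arrays of those regions (0.0450).

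The sequences just upstream of Gfap and Vim are shown because these genes shared the intermediate low point. They are the 250 bases before the RefSeq start site on GRCm38.p6, chr11:102897201-102897450 on the minus strand and chr2:13574061-13574310 on the plus strand, written 5′ to 3′ along the gene. Capitals mark exact matches on either strand to 4 motifs: TGGGAA (the core bound by RBPJ, the DNA-binding partner of Notch), TTGGC (a half-site of nuclear factor I), TTCNNNGAA (bound by STAT factors) and TATAAA (the TATA box). No marked matches overlapped in the 4 promoters shown.
Gfap: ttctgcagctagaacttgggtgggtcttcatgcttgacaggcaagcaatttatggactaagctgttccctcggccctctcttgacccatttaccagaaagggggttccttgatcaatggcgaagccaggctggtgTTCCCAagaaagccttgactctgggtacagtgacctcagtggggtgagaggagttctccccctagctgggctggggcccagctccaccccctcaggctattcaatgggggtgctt
Vim: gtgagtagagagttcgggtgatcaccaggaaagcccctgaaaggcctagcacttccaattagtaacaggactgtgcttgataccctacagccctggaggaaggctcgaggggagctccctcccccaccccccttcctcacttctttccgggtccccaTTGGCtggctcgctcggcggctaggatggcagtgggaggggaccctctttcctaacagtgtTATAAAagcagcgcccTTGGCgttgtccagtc
The Gfap window held 1 RBPJ core on the opposite strand, and the Vim window held 2 nuclear factor I half-sites and a TATA box. Of 32851 promoter windows of this length, 21.6% held the RBPJ core, 41.5% the nuclear factor I half-site, 7.0% the STAT motif and 12.4% the TATA box. Of the 33 genes, 28 had an entry in the promoter table with 33 windows between them, of which 36.4%, 48.5%, 12.1% and 12.1% held the motifs in that order.

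The genes grouped as glutamate handling, among which the neutral amino acid transporter gene Slc7a10 was placed, rose from dorsal through intermediate to ventral pieces. Of the 5, all exceeded dorsal pieces in both other regions, and 4 exceeded intermediate pieces in ventral ones. Slc1a3 encodes GLAST, the glutamate transporter that marks astrocytes from the radial glial stage onward. It stood at 12.10, 11.90 and 12.13 in dorsal, 13.03, 13.08 and 12.99 in intermediate, and 13.55, 13.53 and 13.46 in ventral pieces. These steps of 0.99 ± 0.07 (adjusted p = 0.00119) and 0.48 ± 0.07 (adjusted p = 0.00461) added up to a 2.78-fold excess in ventral over dorsal pieces, and the second was lost without animal 1 (0.0783). All of its 5 other probe sets ran in the same directions. Slc1a2 encodes GLT-1, the main glutamate transporter of mature astrocytes, and differed less, by 0.48 ± 0.04 between ventral and dorsal pieces (adjusted p = 0.000489). Its excess in intermediate over dorsal pieces, 0.29 ± 0.04 (adjusted p = 0.006), was lost without animal 3 (0.101), and that in ventral over intermediate pieces, 0.19 ± 0.04 (adjusted p = 0.013), without animal 2 (0.0625), animal 3 (0.145) or the animal block (0.091). The next brightest Slc1a2 probe set gave -1.07 for dorsal minus ventral, and the most variable one, near the floor, gave 0.00 for intermediate minus dorsal.

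The promoter window of Slc1a3 is shown as that of a graded gene beside the former pair, from chr15:8710808-8711057 on the minus strand with the same marking.
Slc1a3: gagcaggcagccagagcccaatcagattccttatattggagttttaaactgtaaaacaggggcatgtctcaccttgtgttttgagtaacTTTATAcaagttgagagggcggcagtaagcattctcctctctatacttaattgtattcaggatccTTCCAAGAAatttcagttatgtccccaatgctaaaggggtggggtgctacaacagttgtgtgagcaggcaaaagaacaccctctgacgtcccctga
It held a STAT motif and, on the opposite strand, a TATA box letter match far from the start, at 156 to 161 bases before it.

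By the brightest probe sets, Slc7a10, the small neutral amino acid transporter Asc-1, had the widest range of the glutamate group. A dimmer Slc1a3 probe set gave -2.12 for dorsal minus ventral, against -1.69 for Slc7a10. The dorsal values of Slc7a10, 8.79, 9.20 and 9.12, lay below 10.36, 10.29 and 10.47 in intermediate and 10.59, 10.72 and 10.85 in ventral pieces. Most of that rise, 1.34 ± 0.09 (adjusted p = 0.00109), fell between dorsal and intermediate pieces, and the remaining 0.35 ± 0.09 (adjusted p = 0.0301) was lost when any of the 3 animals was left out, at adjusted p from 0.0597 to 0.221. Slc25a18, a mitochondrial glutamate carrier, rose by 0.79 ± 0.09 and then by 0.45 ± 0.09, with adjusted p of 0.00432 and 0.0128, and both calls were lost without animal 2 (0.0612 and 0.129) or animal 3 (0.0528 and 0.0641). Glul, glutamine synthetase, which turns captured glutamate into glutamine, lay at 13.54 to 13.66 in dorsal, 13.82 to 13.91 in intermediate and 13.81 to 13.93 in ventral pieces. It exceeded dorsal pieces by 0.25 ± 0.04 in both other regions (adjusted p = 0.00962 and 0.00429), and intermediate and ventral pieces differed by 0.00 ± 0.04. The call for intermediate pieces was lost without animal 1 (0.0927) or animal 3 (0.131), and that for ventral pieces without animal 3 (0.0791). A dimmer Glul probe set gave larger steps, 0.64 for intermediate minus dorsal and -0.82 for dorsal minus ventral.

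All 8 genes of junctions, water and ion transport were higher in ventral than in dorsal and in intermediate pieces, and 6 rose from dorsal to intermediate pieces. With any 1 animal left out, the dorsal to intermediate call held throughout for Slc4a4 and Atp1b2 but not for Gja1, Mlc1, Hepacam or Ttyh1, and the intermediate to ventral call held for Aqp4, Mlc1 and Ttyh1 but not for the other 5. By the brightest probe sets, Mlc1, a membrane protein of perivascular astrocyte endfeet, changed most. Dimmer probe sets of Aqp4, Gja1 and Slc4a4 gave -1.60, -1.42 and -1.36 for dorsal minus ventral, against -1.26 for Mlc1. Mlc1 lay at 9.98 to 10.32 in dorsal, 10.45 to 10.59 in intermediate and 11.30 to 11.41 in ventral pieces, a 2.39-fold rise from dorsal to ventral (adjusted p = 0.000182). Hepacam, the adhesion partner of MLC1 at cell junctions, rose by 0.79 ± 0.05 (adjusted p = 0.000254) over the same range. Of the gap junction genes, Gja1 (a connexin) was at 14.15 to 14.39, 14.51 to 14.56 and 14.96 to 15.00 in dorsal, intermediate and ventral pieces. Gjb6 (another connexin), which appears later in astrocyte maturation, averaged 9.13 ± 0.27 (SD), 9.29 ± 0.14 (SD) and 9.93 ± 0.09 (SD). Ventral arrays of both genes lay above all the others. The excess of Gja1 in intermediate over dorsal pieces was 0.24 ± 0.06 (adjusted p = 0.0466) and was lost when any 1 animal was left out, at 0.0671 to 0.224, while for Gjb6 it was 0.17 ± 0.14 (adjusted p = 0.432). The ventral excess of Gjb6 over dorsal pieces, 0.81 ± 0.14 (adjusted p = 0.00645), was lost without animal 1 (0.0523) or animal 3 (0.0632).

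Aqp4 encodes the water channel of astrocyte endfeet. It lay at 14.37 to 14.54 in dorsal and 14.33 to 14.47 in intermediate pieces, which overlapped, and at 14.96 to 15.00 in ventral pieces. The ventral excess was 0.54 ± 0.05 over dorsal and 0.58 ± 0.05 over intermediate pieces (adjusted p = 0.000725 and 0.000787), and both dimmer Aqp4 probe sets gave more, -1.02 and -1.60 for dorsal minus ventral. The sodium bicarbonate cotransporter gene Slc4a4 rose by 0.92 ± 0.05 from dorsal to ventral, the chloride channel family gene Ttyh1 by 0.64 ± 0.03 and Atp1b2, a sodium pump subunit, by 0.54 ± 0.03, with adjusted p of at most 0.000267. The small ventral excess of Atp1b2 over intermediate pieces (0.15 ± 0.03, adjusted p = 0.0186) was lost without the animal block (0.286), without animal 2 (0.161) and without animal 3 (0.0635). A dimmer Atp1b2 probe set, with a mean of 6.19, was nearly flat. It gave -0.04 for dorsal minus ventral, 0.01 for intermediate minus dorsal and -0.03 for intermediate minus ventral.

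**Figure D2:**
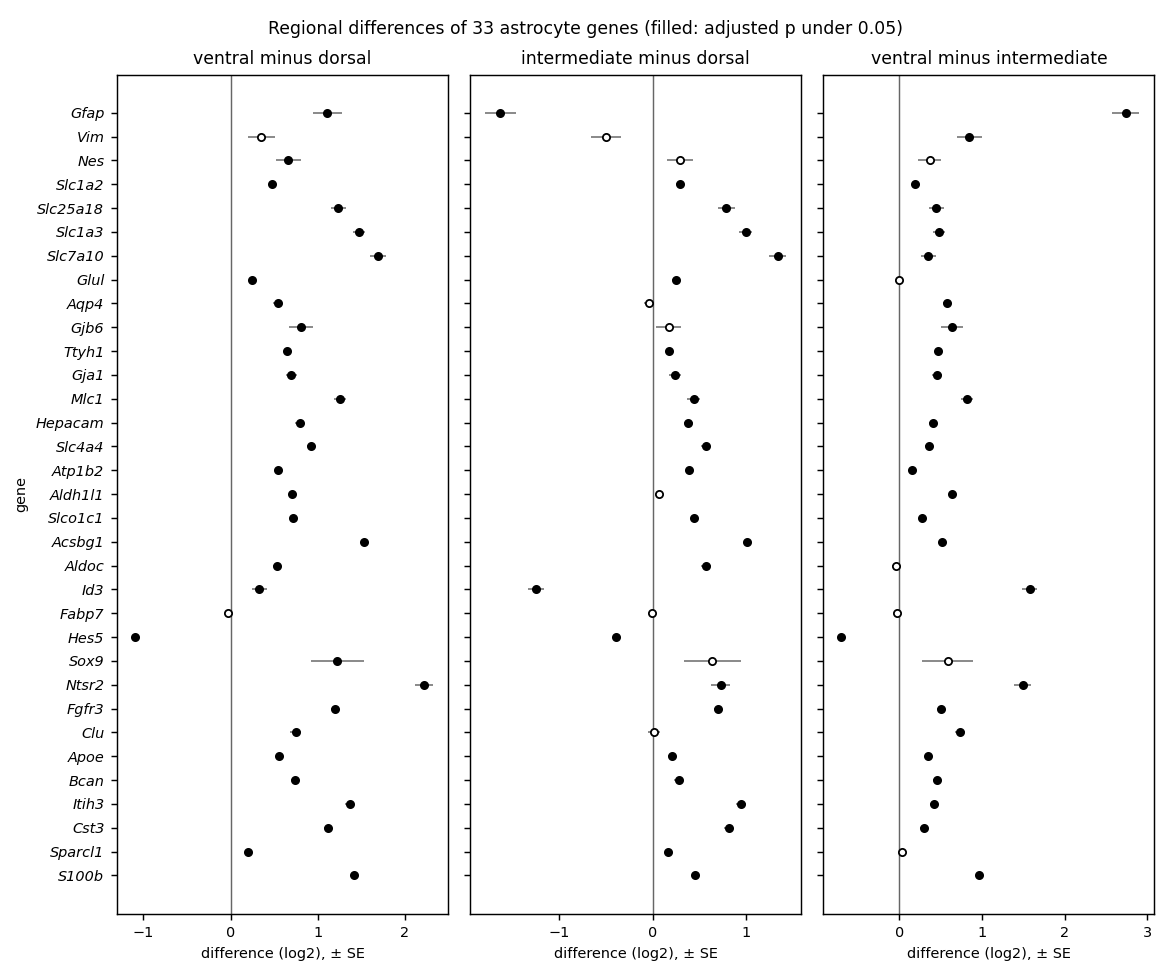
Difference between regions (x axis, log2, ± SE of the model) for each of the 33 astrocyte genes (y axis), with filled points where the adjusted p of limma was under 0.05. Ventral minus dorsal differences are positive for most genes, whereas intermediate minus dorsal differences are spread from -1.63 for Gfap to 1.34 for Slc7a10.

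The 4 genes of metabolism and transport were higher in ventral than in dorsal pieces. Aldh1l1, a folate enzyme widely used as a marker of astrocytes in general, stood at 10.31, 10.30 and 10.48 in dorsal, 10.37, 10.43 and 10.48 in intermediate, and 10.99, 11.09 and 11.12 in ventral pieces. Dorsal and intermediate arrays overlapped (0.07 ± 0.03, adjusted p = 0.204, but 0.14 and 0.0419 after each array was centred on its median), and ventral arrays lay 0.71 ± 0.03 above dorsal (adjusted p = 0.000112) and 0.64 ± 0.03 above intermediate ones (adjusted p = 0.000262). Acsbg1, an acyl-CoA synthetase, rose in both steps, by 1.01 ± 0.04 and 0.52 ± 0.04 (adjusted p = 0.000381 and 0.000651), to a 2.90-fold excess in ventral over dorsal pieces. Slco1c1, a thyroxine transporter of astrocytes and brain vessels, rose by 0.44 ± 0.03 and 0.27 ± 0.03, and the second step was lost without animal 2 (adjusted p = 0.0557). Aldoc, the brain isoform of aldolase, lay at 13.68 to 13.92 in dorsal pieces and was higher in intermediate pieces by 0.57 ± 0.05 (adjusted p = 0.00204). Its intermediate (14.32 to 14.52) and ventral (14.32 to 14.38) values overlapped. A dimmer Aldoc probe set gave -0.27 for intermediate minus ventral, where the brighter one gave 0.04.

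The transcription factors and progenitor genes had no common course. Hes5, a repressor switched on by Notch that holds progenitors undifferentiated, was the 1 astrocyte gene called lower in ventral than in dorsal pieces. It stood at 10.34, 10.30 and 10.30 in dorsal, 9.91, 9.95 and 9.91 in intermediate, and 9.26, 9.24 and 9.14 in ventral pieces. The regions did not overlap, the fall from dorsal to intermediate was -0.39 ± 0.03 (adjusted p = 0.00124), and the intermediate excess over ventral was 0.71 ± 0.03 (adjusted p = 0.000191). These calls held with any 1 animal left out, and a dimmer Hes5 probe set gave -0.47 and 0.77 for the same differences, the former at an adjusted p of 0.0943. The promoter window of Hes5, chr4:154960673-154960922 on the plus strand, is shown because Hes5 is a textbook target of Notch and of RBPJ.
Hes5: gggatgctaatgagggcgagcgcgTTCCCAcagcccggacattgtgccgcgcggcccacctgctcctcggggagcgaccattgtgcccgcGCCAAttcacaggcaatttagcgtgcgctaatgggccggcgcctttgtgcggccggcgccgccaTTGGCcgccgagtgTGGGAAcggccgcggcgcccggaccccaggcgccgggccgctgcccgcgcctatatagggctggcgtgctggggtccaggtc
It held 2 RBPJ cores, 1 on each strand, and 2 nuclear factor I half-sites. At least 2 RBPJ cores were found in 2.77% of all windows, and among the astrocyte genes in that of Hes5.

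Id3, an inhibitor of basic helix-loop-helix factors induced by BMP signals, was the second gene to reach its lowest level in intermediate pieces with both tests passed. It lay at 10.67, 10.58 and 10.78 in dorsal, 9.25, 9.49 and 9.55 in intermediate, and 11.02, 11.05 and 10.95 in ventral pieces. Intermediate minus dorsal was -1.25 ± 0.09 (adjusted p = 0.00118), and ventral pieces exceeded intermediate ones by 1.58 ± 0.09 (adjusted p = 0.000321). The smaller ventral excess over dorsal pieces, 0.33 ± 0.09 (adjusted p = 0.0301), was lost when any 1 animal was left out, at 0.0762 to 0.198. Sox9, a factor needed for glial specification, averaged 8.14 ± 0.58 (SD) in dorsal, 8.78 ± 0.26 (SD) in intermediate and 9.36 ± 0.03 (SD) in ventral pieces. Its dorsal spread came with a low array of animal 2, at 7.47 against 8.38 and 8.56. The ventral excess over dorsal pieces was 1.22 ± 0.31 (adjusted p = 0.0246) and was lost without animal 1 (0.148), animal 2 (0.0508) or animal 3 (0.0673). Fabp7, the brain lipid-binding protein of radial glia, lay between 15.09 and 15.28 on all arrays, and its largest regional difference was 0.03 ± 0.04 (adjusted p = 0.534). These values are close to the highest of the table, 16.3, and whether they can still follow a change was not tested.

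The receptor genes had large ventral excesses. Ntsr2, a neurotensin receptor found on astrocytes, changed more between dorsal and ventral pieces than the other astrocyte genes, by 2.22 ± 0.10 or 4.66-fold (adjusted p = 0.000114). It stood at 9.56, 9.14 and 9.36 in dorsal, 10.08, 9.93 and 10.23 in intermediate, and 11.66, 11.57 and 11.49 in ventral pieces. The ventral step of 1.49 ± 0.10 (adjusted p = 0.00049) held with any 1 animal left out, whereas the step from dorsal to intermediate, 0.73 ± 0.10 (adjusted p = 0.00741), was lost each time, at 0.0588 to 0.0794. Fgfr3, a fibroblast growth factor receptor of astrocytes and their precursors, lay at 12.38 to 12.53, 13.11 to 13.17 and 13.63 to 13.66. Both of its steps, 0.69 ± 0.04 and 0.51 ± 0.04, held with any 1 animal left out. S100b, a calcium-binding protein also made by oligodendrocyte and Schwann cells, rose by 0.45 ± 0.04 and then 0.96 ± 0.04 (adjusted p = 0.00167 and 0.000175), 2.67-fold in all.

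All 6 genes of secreted and matrix proteins were higher in ventral than in dorsal pieces. The widest rise was that of Itih3, a hyaluronan-binding inhibitor heavy chain, at 1.37 ± 0.05 (adjusted p = 7.46e-05), from 7.59 to 7.95 on the dorsal arrays, through 8.63 to 8.85, to 9.10 to 9.26 on the ventral ones. Cst3 (cystatin C), which microglia also make, followed with 1.12 ± 0.05 (adjusted p = 9.85e-05), Bcan (the proteoglycan brevican) with 0.74 ± 0.05, and Apoe, the lipoprotein that carries cholesterol from astrocytes and is also made by microglia, with 0.55 ± 0.04. Clu (clusterin) was at 13.94 to 14.12 in dorsal and 14.02 to 14.10 in intermediate pieces, with no difference that passed (0.01 ± 0.06, adjusted p = 0.967), and at 14.74 to 14.84 in ventral pieces. Sparcl1 (hevin), a synapse-promoting matrix protein, moved least, by 0.20 ± 0.02 (adjusted p = 0.00147), at values of 15.03 to 15.34. Like those of Fabp7, these values are close to the highest of all, 16.3, and whether they can still follow a change was not tested.

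**Figure D3:**
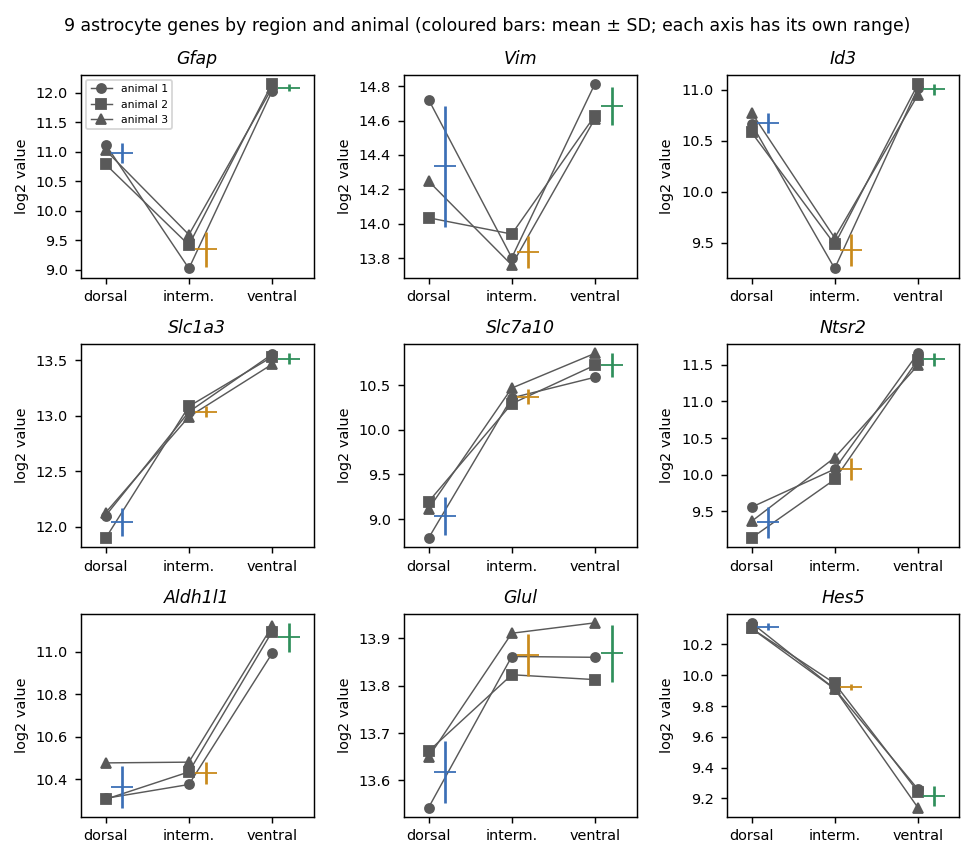
Log2 values (y axis, a separate range in each panel) of 9 astrocyte genes in dorsal, intermediate and ventral pieces; lines join the pieces of 1 animal and coloured bars give the mean ± SD of 3. Gfap, Vim and Id3 dip in the intermediate cord, Slc1a3, Slc7a10 and Ntsr2 climb, Aldh1l1 rises in the ventral step, Glul in the dorsal step, and Hes5 falls.

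The genes differed in where along the cord their rise took place. Expressed as the share of the dorsal to ventral log2 difference already reached in the intermediate piece of the same animal, Aldoc had covered 107% (94.4% to 131% over animals), Glul 98.7% (92.2% to 107%), Sparcl1 83.6% (79.9% to 85.9%) and Slc7a10 79.3% (71.8% to 87.2%). Cst3 had covered 72.8%, Itih3 69.0%, Slc1a3 67.5% (64.3% to 72.7%) and Acsbg1 66.1% (62.9% to 69.5%). S100b stood at 32.1% (27.3% to 35.9%), Ntsr2 at 32.8% and Ttyh1 at 26.8% (23.8% to 29.0%), and Aldh1l1 at 9.3% (0.6% to 16.3%). Clu, at 1.9% (-10.4% to 18.2%), and Aqp4, at -8.1% (-17.5% to 6.7%), lay lower still. These shares rest on the brightest probe set of a gene, and the dimmer ones of Aldoc and Glul had covered less. That of Glul had covered 0.64 of 0.82. That of Aldoc gave 0.75 for intermediate minus dorsal and -1.02 for dorsal minus ventral. For the same differences the next brightest Ttyh1 probe set gave 0.34 and -0.61, and a dimmer one 0.08 and -0.71. The place of Ttyh1 in this order thus depended on the probe set. The ranges of Slc1a3 and S100b over the animals did not overlap, whereas those of neighbouring genes in this order often did.

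The list called fibrous here was Gfap and Vim, and the list called protoplasmic held 10 genes. These were Slc1a2, Slc1a3, Glul, Slc7a10, Slc25a18, Gjb6, Fgfr3, Ntsr2, Aldoc and Acsbg1. The names were given when the lists were set, and no label assigns any of these genes to grey or white matter. From dorsal to intermediate pieces the fibrous mean fell in each animal, by -1.51, -0.73 and -0.96 in animals 1 to 3, while the protoplasmic mean rose by 0.71, 0.69 and 0.65. The gap between the lists was -1.75 ± 0.42 (SD, n = 3). Between intermediate and ventral pieces both lists were lower in the intermediate piece, the fibrous one by -1.80 ± 0.18 (SD) and the protoplasmic one by -0.46 ± 0.03 (SD), with a gap of -1.34 ± 0.18 (SD). Between dorsal and ventral pieces the gap was 0.41 ± 0.24 (SD), since the protoplasmic mean differed by -1.14 ± 0.06 (SD) and the fibrous mean by -0.73 ± 0.24 (SD). No test was made of these gaps, because the lists were set with earlier results of these data known. Gfap alone gave larger intermediate gaps, -2.31 against dorsal and -2.28 against ventral, and Vim alone smaller ones, -1.18 and -0.39. The dorsal and ventral gap was 0.03 with Gfap alone and 0.79 with Vim alone. Replacing the protoplasmic list by all 31 other astrocyte genes brought that gap to 0.09. The rise from dorsal to intermediate pieces was not particular to the protoplasmic list. In animals 1 to 3 its intermediate means lay 0.65, 0.66 and 0.74 above its dorsal mean. The secreted and matrix genes, none of them in that list, lay 0.33, 0.41 and 0.46 above theirs. The transcription and progenitor genes lay below theirs, at -0.27, -0.18 and -0.30.

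**Figure D4:**
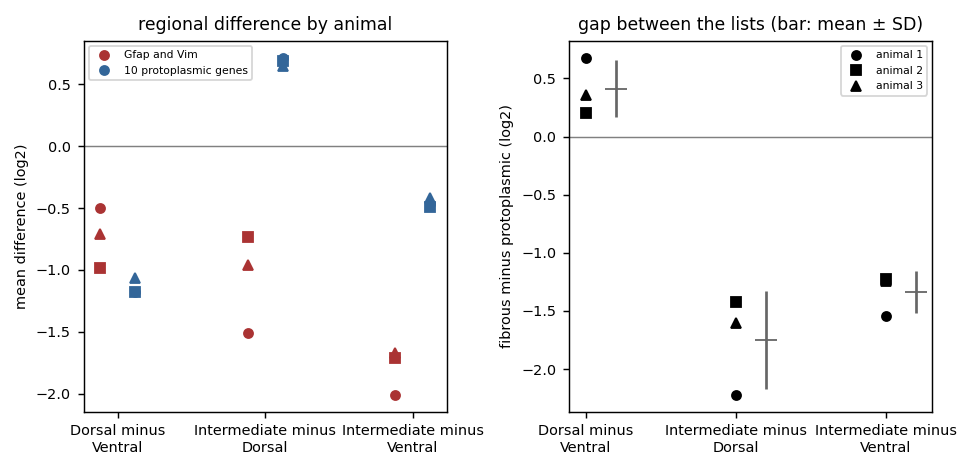
Left, mean log2 difference between regions (y axis) of Gfap and Vim and of the 10 protoplasmic genes in each animal; right, the gap between the lists, with the mean ± SD of 3 animals. The lists move in opposite directions from dorsal to intermediate pieces and in the same direction in the other comparisons.

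Other astrocyte genes, from a list of 32 of which 31 were measured, mostly ran with the group. Ventral pieces were higher than dorsal ones for 26 and lower for 2, Grm3 and Mfge8, with a median of 0.91. Of all genes tested, 28.2% were called higher in ventral pieces and 24.5% lower. F3 (tissue factor) led with 2.22 ± 0.04 (adjusted p = 2.77e-05), followed by Phkg1, a phosphorylase kinase subunit, with 1.89 ± 0.12 and the proteoglycan Sdc4 with 1.67 ± 0.08. Kcnj10, the potassium channel Kir4.1, and Slc6a11, the GABA transporter GAT3, named after their values were seen, were higher by 0.91 ± 0.02 and 1.02 ± 0.06. Grm3, a glutamate receptor of astrocytes that neurons also make, was lower in ventral than in dorsal pieces by -1.55 ± 0.07 (adjusted p = 0.000108). Intermediate pieces were called higher than dorsal for 20 and lower for 3 of the list, beside 15.9% and 14.2% of all genes. Among the latter 3 was Lcat (-1.06 ± 0.13, adjusted p = 0.00556), a cholesterol-esterifying enzyme.

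Genes of white matter and reactive astrocytes numbered 10, of which 8 were tested, with Lcn2 and Steap4 at the floor on every array. Against dorsal pieces the intermediate ones were lower for 3, the hyaluronan receptor Cd44 (-0.91 ± 0.12, adjusted p = 0.00659), the calcium-binding S100a6 (-1.54 ± 0.22, adjusted p = 0.00833) and the matrix protein Tnc (-1.04 ± 0.04, adjusted p = 0.000422), and higher for Serpina3n (0.61 ± 0.16, adjusted p = 0.0463). Ventral pieces exceeded intermediate ones for 7 of the 8, and the median of intermediate minus ventral was -1.39. Of all genes tested, 24.9% were called lower in intermediate than in ventral pieces. Against dorsal pieces, 14.2% were called lower in intermediate ones and 15.9% higher.

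The pathway that induces Gfap runs from LIF-type cytokines and their receptors to STAT3, and from BMPs to SMAD proteins and Id genes. Of its 17 listed genes 16 were tested. In ventral against dorsal pieces 10 were higher and 2 lower, beside 28.2% and 24.5% of all genes tested. In intermediate against dorsal pieces 2 were higher and 5 lower, beside 15.9% and 14.2%. Of genes with a mean of at least 6, which not all of the list reached, 67.1% and 39.3% were called in either direction. Id1 had its low point in intermediate pieces, with -0.97 ± 0.06 for intermediate minus dorsal (adjusted p = 0.000866) and 1.95 ± 0.06 for ventral minus intermediate (adjusted p = 0.000136). For Il6st, the shared receptor gp130, these differences were -0.54 ± 0.10 (adjusted p = 0.0168) and 1.08 ± 0.10 (adjusted p = 0.00105). Bmp4 exceeded dorsal pieces by 1.69 ± 0.17 in ventral ones (adjusted p = 0.00113), but intermediate and dorsal pieces differed by -0.04 ± 0.17 (adjusted p = 0.969). Lifr rose in both steps, by 0.38 ± 0.04 and 0.69 ± 0.04, and the ligand gene Clcf1 was highest in dorsal pieces, where it exceeded ventral ones by 1.81 ± 0.17, with intermediate and ventral arrays near the floor at 2.33 to 2.59. Lif was at the floor on all arrays.

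Of 14 genes of Notch signalling and glial progenitors, 11 were higher and 1 lower in ventral than in dorsal pieces, with a median of 0.89. The shares over all genes tested were 28.2% and 24.5%. Notch3 (1.14 ± 0.03), Notch2 (1.07 ± 0.07), the ligand gene Jag1 (1.07 ± 0.10) and Sox2 (0.98 ± 0.06) led, with adjusted p of at most 0.000858. Rbpj, named after its values were seen, was higher by 0.89 ± 0.05 (adjusted p = 0.000215). Of the Notch target genes in the list, Hey1 was also higher, by 0.89 ± 0.07 (adjusted p = 0.000426), and Hes1 was not called in any comparison (0.11 ± 0.06 for ventral minus dorsal, adjusted p = 0.224), whereas Hes5 was lower in ventral pieces. Hey1 and Hes1 were named after their values were seen.

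A short list of genes tied to the position of spinal astrocytes, which neurons also express, gave Sema3a 2.56 ± 0.14 higher in ventral than in dorsal pieces (adjusted p = 0.000164), Reln 0.72 ± 0.07 and Pax6 1.19 ± 0.07 higher, and Slit1 -1.55 ± 0.06 lower. Nkx6-1, a ventral homeobox gene, was at the floor on all dorsal and intermediate arrays and at 4.20 to 5.12 in ventral pieces.

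Markers of other cells moved between the same pieces, and their part in these results was not tested. For intermediate against dorsal pieces, 14.2% of all genes tested were called lower and 15.9% higher. Of 10 meningeal and fibroblast genes, 8 were lower in intermediate than in dorsal pieces, with a median of -1.72, and 0 were higher. Their summed linear level, in antilogs of the deposited values, was 13014 to 27967 in dorsal, 3131 to 3944 in intermediate and 17385 to 23629 in ventral pieces, with none of the 10 at the floor throughout. The highest dorsal array for this list, for the Schwann cell gene Pmp22 (13.93 against 12.69 and 12.03) and for Vim was that of animal 1. Gfap was also highest on that dorsal array (11.12 against 10.78 and 11.02), whereas Id3 was highest on another. Of 12 microglia genes 9 were lower in intermediate than in dorsal pieces, with sums of 5291 to 6366, 3813 to 4342 and 6799 to 7337, and the defining markers Tmem119, Trem2 and Itgam at or near the floor. Of 7 listed Schwann cell genes 4 were measured. Of these, Pmp22 and Pmp2 were called lower in intermediate than in dorsal pieces, and Cdh19 and Foxd3 were not. Gfap, Vim and Id3 had their low point in the pieces where most meningeal and microglia genes, Pmp22 and Pmp2 had theirs. The 10 ependymal genes went the other way, with 9 called higher in intermediate pieces than in dorsal ones and sums of 120 to 140, 773 to 1011 and 590 to 646.

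Along the dorsal to ventral axis, 6 of 6 oligodendrocyte progenitor genes and 8 of 9 myelin genes were higher in ventral than in dorsal pieces, with medians of 1.00 and 1.74, as were 6 of 8 endothelial genes. Of 8 neuronal genes 7 were lower in ventral pieces, with a median of 0.74 for dorsal minus ventral, and Nefl was higher. In that comparison 28.2% of all genes tested were called higher in ventral pieces and 24.5% lower. The myelin sums were 109812 to 123721 in dorsal, 109966 to 132195 in intermediate and 197898 to 208798 in ventral pieces, and the neuronal sums 91091 to 102511, 101938 to 108167 and 70179 to 71640. The arrays were loaded from equal amounts of total RNA (500 ng), so the values give shares of a piece's RNA and not amounts per cell.

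**Figure D5:**
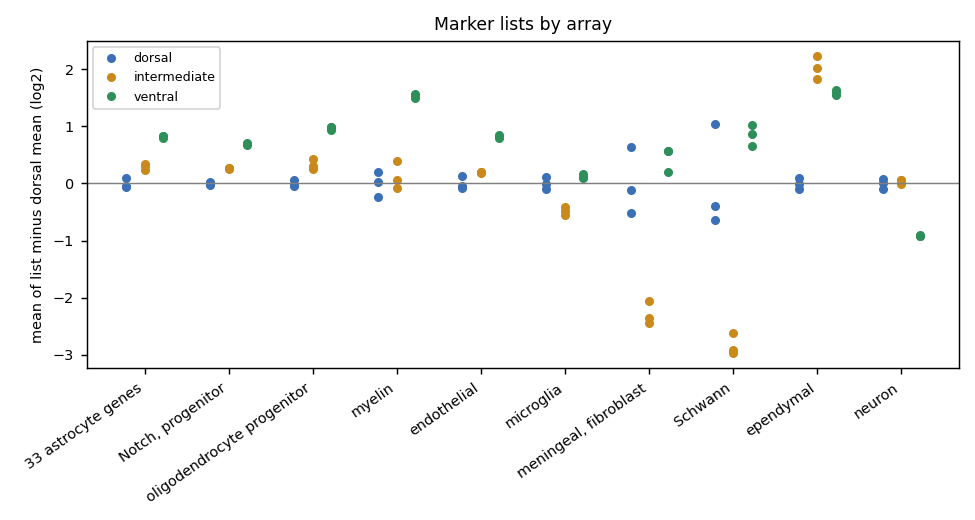
Mean log2 value of each marker list on each array minus the list's dorsal mean (y axis), for dorsal, intermediate and ventral arrays. The astrocyte genes and the Notch, endothelial and both oligodendrocyte lists stand highest in ventral arrays. The meningeal and Schwann lists lie well under their dorsal means in intermediate arrays, and the neuronal list is lowest in ventral arrays.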

How the data were processed

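RNA of 9 spinal cord pieces (3 regions of 3 mice) was hybridised to Affymetrix 3' arrays from 500 ng of total RNA, per the labels' protocols. The authors' deposited values, 1 per probe set and array, were taken as log2 because of their range. Their summarisation and normalisation: not given in the sources used here. The number of arrays limits the precision.

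Of 45037 probe sets, 34945 had 1 gene symbol in the platform annotation, 932 had several and 9160 none. A gene was tested when its brightest single-symbol probe set had a mean at or above the 30th percentile over probe sets, which left 13959 genes. A linear model of region and animal was fitted with limma 3.58.1 (R 4.3.3) to all 9 arrays, with Benjamini-Hochberg adjustment. The code was tested on simulated data. Figures used matplotlib 3.10.9, and promoters came from RefSeq (GRCm38.p6).

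The titles name the animal of each array, which gives the pairing. After subtraction of region means, arrays of 1 animal correlated over genes at -0.066 to 0.246 (9 pairs), and arrays of different animals at -0.18 to 0.161 (18 pairs).

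The astrocyte genes and all lists were chosen with earlier results of these data known. All 33 could be named, and of each other list up to 4 genes with the largest difference among those called in a comparison. Probe sets ending in _s_at or _x_at, as used for Gfap, Vim, Hes5, Clu and Bcan, can match more than 1 transcript. Alternatives concerned the animal block, filter, scaling, variance prior, tied values, probe set choice, and leaving out an animal or array.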

Additional observations from a re-analysis of the deposited data

How the results depend on the processing

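With any 1 animal or array left out, 25 to 31 astrocyte genes were called between dorsal and ventral pieces, 16 to 26 between intermediate and dorsal, and 20 to 28 between intermediate and ventral, against 31, 25 and 27 with all arrays. Of those calls, 25, 13 and 15 held whichever animal was left out. Over all genes, 1464 to 3707 were called between intermediate and dorsal pieces (4202 with all arrays, 2105 with only the arrays of those regions) and 4200 to 6658 between intermediate and ventral, against 6731; the lowest counts came without animal 3. Without the replicate block, 31, 25 and 24 astrocyte genes were called, and the calls of Slc1a2, Atp1b2 and Cst3 (adjusted p = 0.0622) between intermediate and ventral pieces were lost.

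The fibrous minus protoplasmic gap was 0.032, -2.31 and -2.28 with Gfap alone (dorsal minus ventral, intermediate minus dorsal, intermediate minus ventral), 0.79, -1.18 and -0.39 with Vim alone, and 0.091 for dorsal minus ventral against all other astrocyte genes. Sign changes concerned differences that were not called with all arrays and the brightest probe set, and the reversed value was itself called for Aldoc with its most variable probe set. With arrays centred on their medians, dorsal minus ventral of Fabp7 was -0.016, intermediate minus dorsal was 0.067 for Fabp7 and 0.027 for Aqp4, and intermediate minus ventral of Glul was 0.020. The most variable probe set gave -0.036 for Clu (intermediate minus dorsal) and -0.27 for Aldoc (intermediate minus ventral, adjusted p = 0.0149), and the mean of probe sets gave -0.00021 and -0.11. With 1 animal or array left out, intermediate minus dorsal ranged from -0.011 to 0.28 for Gjb6, from -0.045 to 0.039 for Fabp7 and from -0.060 to 0.061 for Clu, and intermediate minus ventral from -0.014 to 0.081 for Aldoc and from -0.032 to 0.015 for Glul. The cause of these changes was not tested.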
